A study of Mus musculus with 4 samples.

Results

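The genes described here are 10 genes of the Wnt and beta-catenin pathway, Axin2, Cdx1, T, Lef1, Sp5, Nkd1, Tcf7, Tcf7l1, Ctnnb1 and Wnt3. They were chosen from known roles in the pathway with earlier results of these data in view, Wnt3 because of its difference between sorting gates, and they are 10 of the 46078 mouse genes counted. Of the 10 genes, 8 had a mean of at least 10 normalized counts over all kept cells, whereas T and Nkd1 did not. The values that led to the choice are given as a description.

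Wild-type mouse ES cells were grown in 2i, which holds them naive with the MEK inhibitor PD0325901 and the GSK3 inhibitor CHIRON, used with leukemia inhibitory factor (LIF). They were sorted by forward and side scatter into a small gate, meant to hold cells leaving mitosis or in G1, or were left ungated, and were then kept on laminin for 6 h, either in 2i or in differentiation medium, N2B27 without inhibitors. All groups share the same unmodified ES cells and the sort, and each group (2i small or ungated, N2B27 small or ungated) is 1 sample of 24 single cells read by Smart-seq2. Since there is 1 sample per group, no test between groups is given. Leaving 2i removed both inhibitors and LIF at once, so a response to the loss of GSK3 inhibition cannot be told apart from a response to the loss of MEK inhibition or LIF.

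In the pathway, Wnt ligands bind Frizzled receptors and stop a destruction complex, built on AXIN and APC and containing GSK3, from marking beta-catenin for degradation. Beta-catenin then joins TCF and LEF factors on target genes, and inhibition of GSK3 has the same effect without a ligand. In naive ES cells this chiefly relieves TCF7L1, a repressor of naive genes, and Axin2, Cdx1, T, Lef1, Sp5, Nkd1 and Tcf7 are often used as readouts of the pathway.

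Filtering kept 12 of 24 cells in 2i small, 22 in 2i ungated, 20 in N2B27 small and 21 in N2B27 ungated, with 1364155 to 4844170 counts per cell. All 2i cells lie on a plate and lane of their own, as do all N2B27 cells, so the effect of the medium and that of plate or lane cannot be told apart. The gates took different index rows of each plate. Cells called G2/M made up 1 of 12, 14 of 22, 3 of 20 and 15 of 21 cells in the same order of groups, so cell-cycle phase moved with the gate, and values within S cells are given below where they bear on a result. Of the 5 markers of ES cells, all were present in every group, with a summed level of 113 to 12704.5 normalized counts per cell. Of the 5 markers of fibroblast feeders, 4 or 5 had no count in each group. The 6 primitive endoderm markers summed to 0 in the median cell of every group, and the 6 trophoblast markers, some of which ES cells also express, summed to medians of 44.2 to 197.7. The 6 primitive streak markers also summed to 0 in the median cell of every group. In N2B27 small cells 4 of the 6 had no count, Mixl1 had 218 counts in 1 cell, and Eomes reached 286.5 in 1 cell. The highest streak sum of any group, 1024.2, lay in a 2i small cell. Gsc, the 1 streak marker above the mean filter, had a mean of 85.75 in 2i small and 0 in N2B27 small cells. Its log2 ratio was −6.44, and −0.53 without the highest cell of each group. A 2i small cell with 40.9% of its counts on spike-ins and a size factor of 0.133 weighs heavily in means. It held no count of any of the 10 genes but Ctnnb1.

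To show what the readouts look like upstream of their start sites, the 250 bases before the RefSeq start (GRCm38.p6) are given for Sp5, the target with the largest fall in N2B27 here, and for Axin2, the general feedback target. Capitals mark CTTTGA or CTTTGT, the core letters read by TCF and LEF factors, on either strand. The Sp5 window is chr2:70474673-70474922 and the Axin2 window is chr11:108920099-108920348, both on the plus strand and in 5′ to 3′ direction.
Sp5: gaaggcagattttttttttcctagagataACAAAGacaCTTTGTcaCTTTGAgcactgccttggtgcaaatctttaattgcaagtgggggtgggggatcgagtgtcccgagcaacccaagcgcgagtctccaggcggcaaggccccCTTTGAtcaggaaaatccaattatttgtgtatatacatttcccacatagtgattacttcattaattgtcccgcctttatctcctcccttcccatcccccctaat
Axin2: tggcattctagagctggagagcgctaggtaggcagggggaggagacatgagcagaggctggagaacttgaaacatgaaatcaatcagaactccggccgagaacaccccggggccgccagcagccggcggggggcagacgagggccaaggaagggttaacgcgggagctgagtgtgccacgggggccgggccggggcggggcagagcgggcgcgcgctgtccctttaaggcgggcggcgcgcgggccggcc
The Sp5 window held 4 matches, CTTTGA beginning 204 and 104 bases before the start and CTTTGT beginning 212 bases before it on the plus strand and 221 bases before it on the minus strand. The Axin2 window held none. Of 32851 RefSeq windows of this length, 13.8% held CTTTGA, 16.5% held CTTTGT, 27.6% held either and 0.0944% held 4 or more matches. Windows were found for 9 of the 10 genes, 14 in all, and 4 windows held a match, those of Sp5, T, Tcf7l1 and 1 of the 4 starts listed for Lef1. A match is a string of letters and not a shown binding site.

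Levels are given as normalized counts, the reads of a gene divided by the size factor of the cell, and a cell at 10 or more is called a cell with a high level. A comparison is the log2 ratio of the group means after adding 1, and a size of 1 was used to count genes as higher or lower. From 2i to N2B27 in small cells, 4 of the 8 genes above the mean filter were lower (Axin2, Cdx1, Lef1 and Sp5), where 19.5% of all 10375 genes were, and 2 were higher (Tcf7 and Wnt3), where 26.2% of all genes were. In ungated cells 3 of 8 were lower (Cdx1, Sp5 and Wnt3) and 1 was higher (Axin2), against 12.6% and 9.67% of all genes. The median log2 ratio over the 7 readouts was −1.57 in small cells, or −1.99 with genes lacking counts set at their bound or left out, and −0.45 in ungated cells. All genes had medians of 0.13 and −0.03. Between gates, 3 of 8 genes were lower in small than in ungated cells in N2B27 (Axin2, Lef1 and Sp5) and 1 was higher (Wnt3), against 19.2% and 14.4% of all genes. In 2i, 1 was lower (Tcf7) and 0 were higher, against 31.4% and 15.8%.

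**Figure D1:**
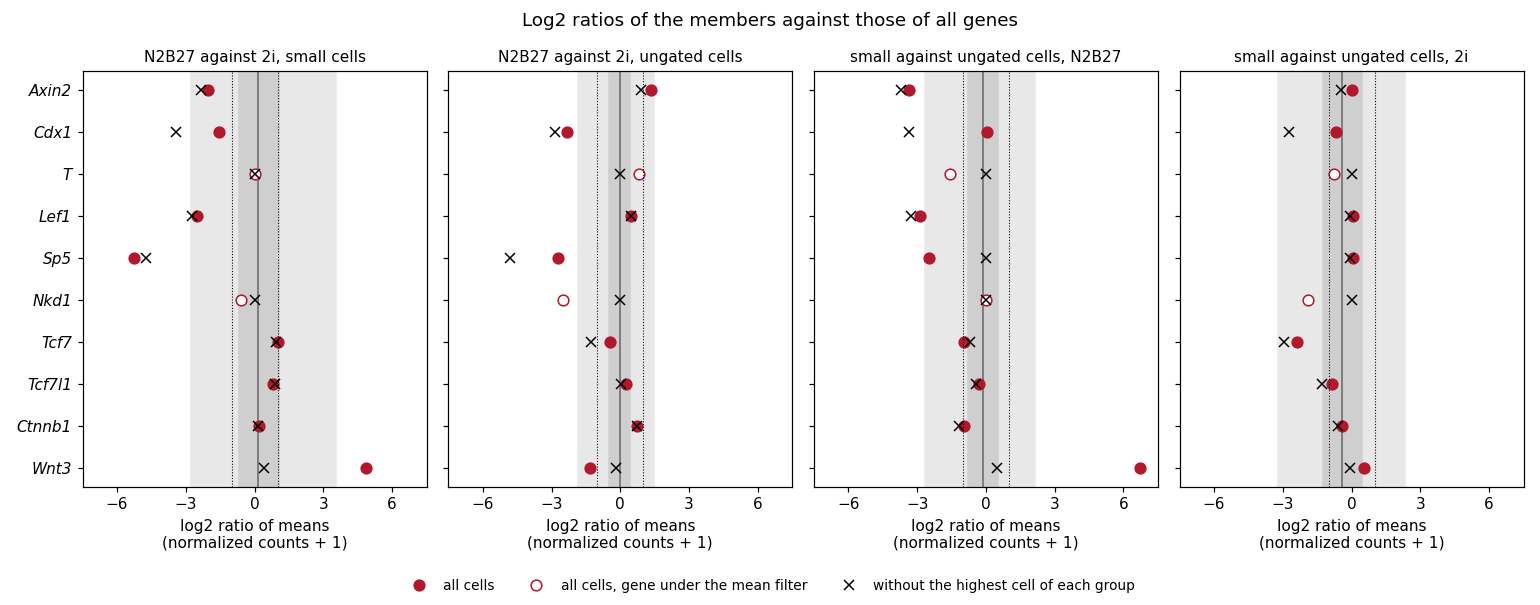
Log2 ratios of group means (horizontal axis, normalized counts plus 1) for the 10 genes in the 4 comparisons. Red points use all kept cells (open where the gene is under the mean filter), crosses leave out the highest cell of each group, light and dark grey bands span 90% and 50% of all genes, the grey line is their median and dotted lines mark a size of 1. Wnt3 in small against ungated N2B27 cells moves from 6.74 to 0.49 without the highest cells, whereas Lef1 in the same comparison moves from −2.90 to −3.26.

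Sp5, a zinc finger factor induced directly by beta-catenin, was nearly lost in the kept N2B27 cells. It reached a high level in 4 of 12 small cells in 2i (33.3%, exact Clopper-Pearson interval 9.92% to 65.1%) and 9 of 22 ungated cells (40.9%, 20.7% to 63.6%), with highest values of 182.7 and 246.7. In N2B27 it did so in 0 of 20 small cells (exact upper limit 16.8%) and in 1 of 21 ungated cells, at 99.7. Counts fell from 633 to 1 in small cells and from 975 to 121 in ungated cells, a log2 ratio of −5.26 and −2.74. Intervals and floors here and below cover counting error within these samples only. Reads without molecular identifiers are not independent molecules, and the cells of 1 sample are not replicates of a condition, so intervals over cells do not compare conditions. The highest Sp5 count on the N2B27 plate, 191, lay in a small cell that the filter left out. Limits were set for each plate and were stricter in N2B27 than in 2i. With all cells kept and size factors from another method (poscounts), the ratio in small cells was 1.13, where the median of all genes was 0.69. Over 15 alternatives it was below 0 in 14, and of size 1 or more in that direction in 13. The near loss of Sp5 in small cells thus describes the kept cells. The value of 1.13 changed the filter and the size factors together, so which of them moved the ratio cannot be told from it.

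Cdx1, a caudal homeobox gene, was also lower and stayed in isolated cells. In 2i it was high in 3 of 12 small and 11 of 22 ungated cells, with a median of 47 normalized counts in ungated cells and a highest value of 630.1, and the highest small cell stood at 672.0. In N2B27 it was high in 1 of 20 small cells, at 431.9, and in 2 of 21 ungated cells, at 227.6 and 220.4, while every other ungated cell was at 0. The N2B27 cells with Cdx1 were thus few but as strong as many 2i cells. The log2 ratio was −1.57 in small and −2.30 in ungated cells. The first rests on 1 cell in each group, which held 99.2% of the summed level of small N2B27 cells and 83.8% of that of small 2i cells, and was −3.44 without the highest cell of each group.

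Lef1, which encodes a DNA-binding partner of beta-catenin, differed between the gates in N2B27. In 2i it was high in 6 of 12 small cells and in 14 of 22 ungated ones, with means of 63.5 and 60.5. In N2B27 it was high in 2 of 20 small cells (10%, 1.23% to 31.7%), at 99.1 and 97.8, and in 12 of 21 ungated cells (57.1%, 34.0% to 78.2%), with a highest value of 499.6 and a median of 19.1. The log2 ratio of N2B27 to 2i was −2.51 in small cells and 0.46 in ungated cells, and that of small to ungated cells in N2B27 was −2.90. It ranged from −3.45 to −2.53 over all 15 alternatives. Among cells called S, 4 of 4 ungated and 1 of 11 small N2B27 cells were high, with means of 117.6 and 9.82, so the difference was also present within S, where the 4 ungated cells are few.

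Axin2, a scaffold of the destruction complex that the pathway induces as its own brake, had equal means in 2i. It stood at 14.7 in small and in ungated cells, with highest values of 92.7 and 93.1. In N2B27 it was high in 1 of 20 small cells, at 43.7, and in 4 of 21 ungated cells, at 384.1, 232.4, 179.7 and 13.1. The ungated mean of 38.8 therefore came from 3 cells that exceeded every cell in 2i, while the median cell had no count in any group. The log2 ratio of N2B27 to 2i was −2.03 in small and 1.34 in ungated cells, and the latter was −0.49 as a difference of mean log2 values, where the median of all genes was −0.57. In S cells alone it was −2.63, from means of 1.20 in 4 N2B27 cells and 12.6 in 8 2i cells. None of the 3 N2B27 cells that exceeded every 2i cell was called S, so the S value leaves them out by design. The share of cells with a high level was 31.8% in 2i ungated cells (13.9% to 54.9%) and 19.0% in N2B27 ungated cells (5.45% to 41.9%).

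Tcf7, which encodes TCF1, had a lower mean in small than in ungated cells in 2i. It was high in 2 of 12 small cells (2.09% to 48.4%), at 27.2 and 12.7. Among ungated cells 8 of 22 were high (17.2% to 59.3%), of which the highest stood at 116.3. A count of any size was found in similar shares, 5 of 12 small (41.7%) and 9 of 22 ungated cells (40.9%). The log2 ratio was −2.40. In N2B27 it was high in 3 of 20 small and 2 of 21 ungated cells, the latter at 223.4 and 157.9. The ratio of N2B27 to 2i was 1.01 in small and −0.45 in ungated cells, and the first was −2.72 with spike-in size factors and −0.19 as a difference of mean log2 values, settings under which all genes had medians of −1.55 and −0.14.

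T, the primitive streak factor Brachyury, and Nkd1, a feedback inhibitor that binds Dishevelled, were seen in single cells. T had 13 counts in 1 ungated 2i cell and 44 counts in 1 ungated N2B27 cell, and none in 32 small cells. In N2B27 small cells, 0 of 20 has an exact upper limit of 16.8%. Nkd1 had 117 counts in 1 ungated 2i cell and 5 in 1 small 2i cell, and none in the 41 N2B27 cells. Against a floor of 3 counts over the group, Nkd1 was at least 37.2-fold lower in ungated N2B27 than 2i cells, a bound that rests on the 1 cell.

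**Figure D2:**
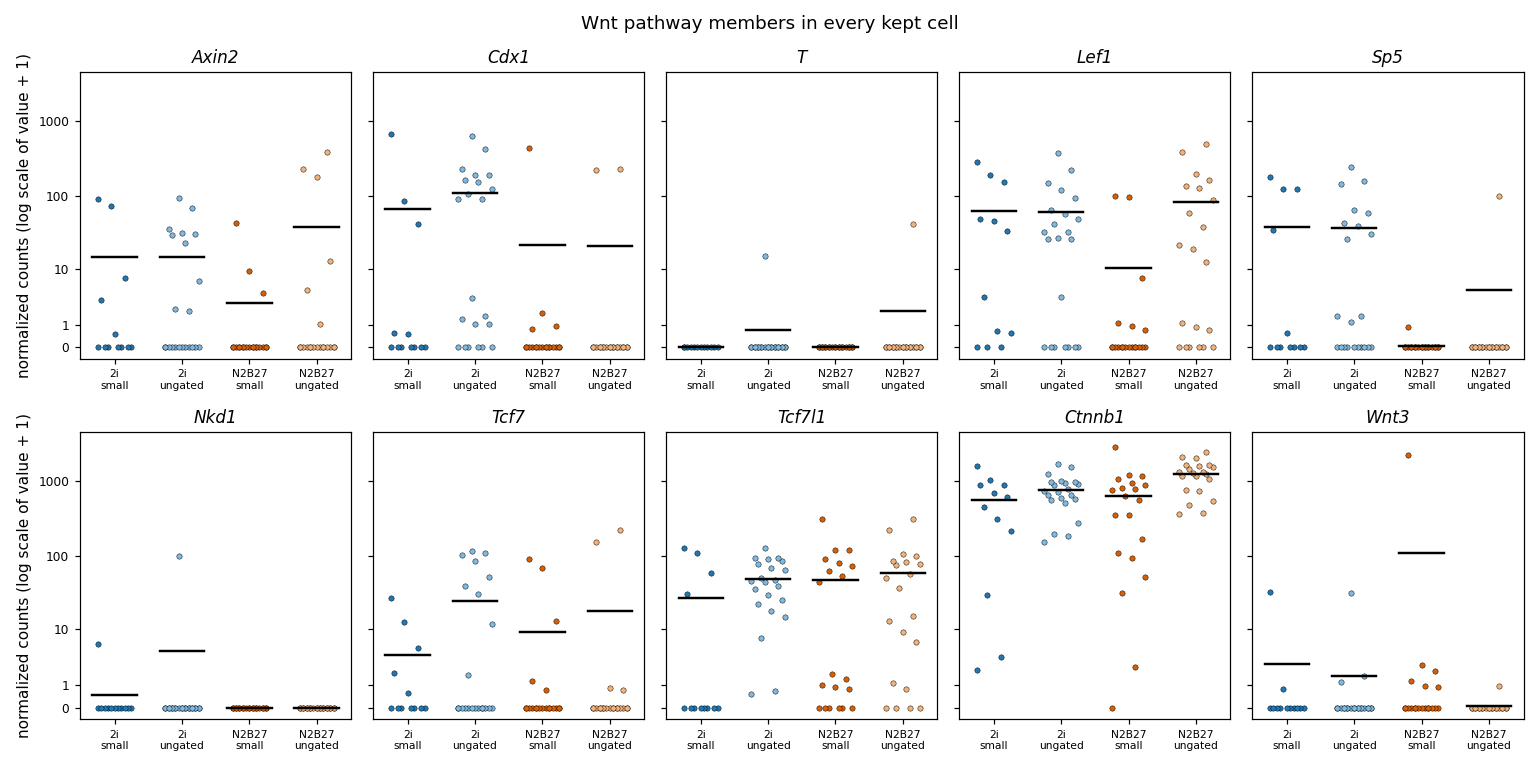
Normalized counts (vertical axis, log scale of the value plus 1) of the 10 genes in each of the 75 kept cells, by group; points are cells and bars are group means. Sp5 and Cdx1 have high cells in both 2i groups and 1 or 2 in each N2B27 group at most, Ctnnb1 is present in nearly all cells, and the Wnt3 mean of 110.4 in N2B27 small cells rests on 1 point at 2200.2.

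The readouts also differed in how many were found in the same cell. No 2i ungated cell lacked a high readout (0 of 22, exact upper limit 15.4%), and 17 of 22 had 2 or more (77.3%, 54.6% to 92.2%), up to 5. In N2B27 ungated cells 5 of 21 had none and 6 of 21 had 2 or more (28.6%, 11.3% to 52.2%), with 2 as the highest number. In small cells 5 of 12 had 2 or more in 2i (41.7%, 15.2% to 72.3%) and 1 of 20 in N2B27 (5%, 0.127% to 24.9%), while 6 and 14 had none. One of the 5 small 2i cells was the cell with 15712 genes and 0.0673% spike-ins, where no other kept cell had over 10335 genes, and without it 4 of 11 small 2i cells had 2 or more. High levels were also less frequent in N2B27 over all 10375 genes. The mean share of cells with a high level was 64.1% in 2i and 52.3% in N2B27 for all genes in ungated cells, against 33.1% and 15.0% for the 7 readouts. In small cells it was 45.0% and 40.6% for all genes, against 20.2% and 5% for the readouts. The 2 sets are unlike, since the 7 readouts include T and Nkd1, which lie below the mean filter that all 10375 genes passed. How much of the readouts' difference goes with the general one was not tested. After thinning each cell to 1300000 counts, 17 of 22, 4 of 21, 5 of 12 and 0 of 20 cells had 2 or more, for ungated cells in 2i, then in N2B27, and small cells in 2i, then in N2B27. Axin2 and Lef1 were high together in 8 of the 9 2i cells with high Axin2, and in 1 of the 5 such N2B27 cells. Lef1 itself was high in 20 of 34 2i cells and 14 of 41 N2B27 cells. Cdx1 and Sp5 were high together in 7 of 34 cells in 2i and in 0 of 41 in N2B27. Only 3 N2B27 cells were high for Cdx1 and 1 for Sp5, so the last count cannot show whether they occur together.

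**Figure D3:**
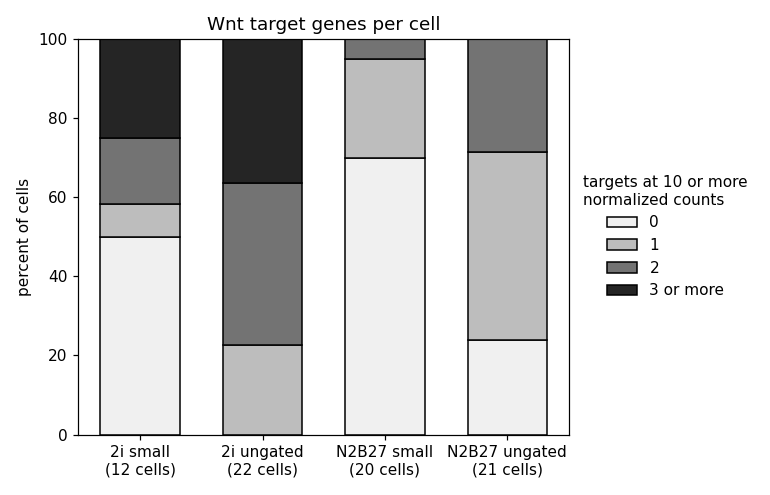
Percent of cells (vertical axis) with 0, 1, 2 or at least 3 of the 7 readouts at 10 or more normalized counts, for each group with its number of kept cells. Cells with 3 or more are found in 2i (3 of 12 small, among them the cell with 15712 genes, and 8 of 22 ungated) and in no N2B27 cell.

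Ctnnb1, which encodes beta-catenin, was by far the most abundant of the 10 genes. Per kilobase of exon it stood at 147.1 normalized counts in 2i ungated cells, against 62.5 for Cdx1, 17.8 for Sp5 and 12.8 for Tcf7l1. It had a count in all kept cells but 1, a small cell in N2B27. The mean was 566.4 in 2i small, 763.8 in 2i ungated, 641.4 in N2B27 small and 1255.5 in N2B27 ungated cells. Ungated N2B27 cells ranged from 367 to 2438.1 and ungated 2i cells from 154.5 to 1704.1, so the groups overlapped, with medians of 1300.3 and 731. The log2 ratio of N2B27 to 2i was 0.72 in ungated and 0.18 in small cells, short of the size used for counting genes. Only transcript was measured, and GSK3 acts on the protein.

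Tcf7l1 was also broadly present in ungated cells. It had counts in 22 of 22 ungated 2i cells (lower limit 84.6%), 17 of 21 ungated N2B27 cells, 14 of 20 small N2B27 cells and 4 of 12 small 2i cells (33.3%, 9.92% to 65.1%). The log2 ratio of small to ungated cells in 2i was −0.84. Over all 10375 genes the mean share of cells with a count was also lower in small than in ungated 2i cells, 60.3% against 74.5%. High levels were found in 4 of 12, 19 of 22, 9 of 20 and 13 of 21 cells, giving 2i before N2B27 and small before ungated cells. From 2i to N2B27 the log2 ratio was 0.80 in small and 0.26 in ungated cells.

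Wnt3, a ligand of the pathway, had the largest ratio of the 10 genes between gates in N2B27, and it came from a single cell. Means were 110.4 in small and 0.0452 in ungated N2B27 cells, with 1954 counts against 1, and the log2 ratio was 6.74. A ratio this high was reached by 0.0289% of all genes, which is a description only, since Wnt3 was chosen for this difference. Of the 1954 counts, 1946 lay in 1 cell, which held 99.6% of the summed level. The next highest small cells had 3 and 2 counts. Without the highest cell of each group the means were 0.408 and 0, and the log2 ratio was 0.49. As a difference of mean log2 values it was 0.83, and in S cells 0.10.

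A count of any size was found in 6 of 20 small cells (30%, 11.9% to 54.3%) against 1 of 21 ungated cells (4.76%, 0.12% to 23.8%), a difference of 25.2 percentage points. At 10 normalized counts or more, it was 1 of 20 and 0 of 21, a difference of 5 points. On the N2B27 plate, 9 cells other than the highest had 1 to 3 Wnt3 counts, and 8 of these carried 1 of the 2 index names of the high cell (88.9%), as did 14 of the 47 other cells of the plate (29.8%). Whether reads were passed between libraries that share an index was not tested. Over the 10 genes on both plates, 35 of 76 cells with 1 to 3 counts shared an index name with the highest cell (46.1%). In 2i Wnt3 was high in 1 of 12 small cells, at 32.8, and in 1 of 22 ungated cells, at 32.5, so the N2B27 cell stood far above every other cell.

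The Wnt3 cell was called G1 and passed every limit, with 2148283 counts and 6335 genes. Wnt3 ranked 205 among its genes by count. None of the 7 readouts was high in that cell, with Lef1 at 1.13 and the others at 0, and Ctnnb1 was at 885.3. All 6 streak markers were at 0. Of the 5 ES cell markers, Zfp42, which encodes REX1, was at 209.2, the lowest of the 20 cells (median 2517.5). Pou5f1 at 79.2 ranked 3 from the lowest, Esrrb 4, Nanog at 6.78 ranked 5 and Sox2 at 15.8 ranked 9. It had the third fewest genes and the second highest spike-in share of the group, 5.52%, and it held the highest level of all 75 cells for 620 genes, where the small N2B27 cells ranged from 74 to 620 with a median of 243. Whether this cell differs from the others in its state or in its library was not tested.

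**Figure D4:**
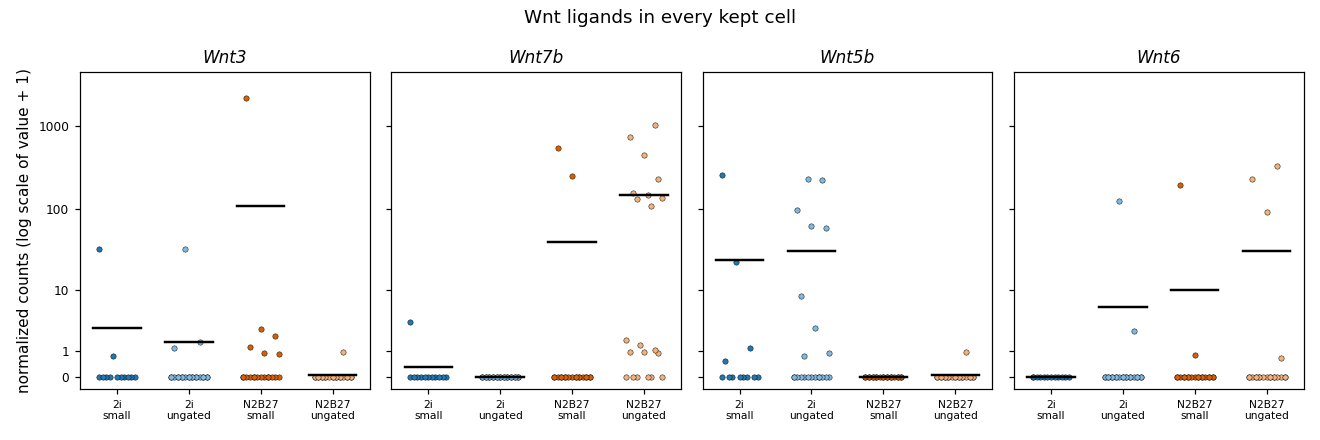
Normalized counts (vertical axis, log scale of the value plus 1) of Wnt3, Wnt7b, Wnt5b and Wnt6 in each kept cell by group; points are cells and bars are group means. Wnt3 in N2B27 is 1 high point, whereas Wnt7b is high in 9 of 21 ungated N2B27 cells and in no 2i cell.

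Of the 19 Wnt ligands, 4 passed the mean filter, and Wnt7b and Wnt5b differed between media in more cells than Wnt3. Wnt7b had 0 counts in 22 ungated 2i cells and 3441 in 15 of 21 ungated N2B27 cells, 9 of them high, with a highest value of 1028.2. Of the 7 cells of that plate with 1 to 3 Wnt7b counts, 5 shared an index name with its highest cell. Wnt7b was also high in 2 of 20 small N2B27 cells. Wnt5b went the other way, with 718 counts in 9 of 22 ungated and 402 in 4 of 12 small 2i cells, 1 count in ungated N2B27 cells and none in small ones. The small-cell sum in 2i lay to 91.5% in 1 cell. Wnt6 was high in 3 of 21 ungated N2B27 cells and in at most 1 cell of each other group. Porcn, the acyltransferase that ligands need for secretion, was high in 16 of 22 ungated cells in 2i against 10 of 21 in N2B27, and among small cells in 5 of 12 against 10 of 20, while Wls, their carrier, had no count in small N2B27 cells.

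Of the 97 other genes of the pathway lists, 38 passed the filter. In ungated cells 14 were lower and 9 were higher in N2B27 than in 2i, where 12.6% and 9.67% of all genes were, and in small cells 11 and 12, against 19.5% and 26.2%. Between gates in N2B27, 10 were lower and 9 higher in small cells, against 19.2% and 14.4% of all genes, and in 2i 13 and 7, against 31.4% and 15.8%. Of the 9 other targets that passed the filter, 4 were lower and 3 were higher in N2B27 than in 2i in ungated cells. In small cells the counts were the same, and the shares of all genes for both are those given above. Myc had ratios of 1.14 in ungated and 1.41 in small cells, and Msx2 of 0.26 and 2.22. Among other targets, Notum, an extracellular enzyme that inactivates Wnt ligands, was high in 13 of 22 ungated 2i cells and 3 of 21 ungated N2B27 cells, a log2 ratio of −2.47, and in small cells the ratio was −1.93. Znrf3, a ligase that removes Frizzled receptors, had ratios of −1.81 in ungated and 1.47 in small cells, where 57.5% of the N2B27 level was in 1 cell. Bambi had ratios of 1.76 and −1.13. Cdx2 was at 0 in ungated N2B27 cells and in 1 small N2B27 cell, at 351.8.

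Of the 7 receptors and coreceptors that passed the filter, 3 were lower (Ror1, Ror2 and Fzd10) in ungated N2B27 than 2i cells. In the same comparison 2 were higher (Ryk and Fzd7), against 12.6% of all genes lower and 9.67% higher. Ror1 and Ror2, receptors of noncanonical Wnt signals, had log2 ratios of −2.52 and −1.73, and the secreted Frizzled-related proteins Sfrp1 and Sfrp2 had ratios of −1.35 and −2.36. Sfrp2 was high in 14 of 22 ungated 2i and 3 of 21 ungated N2B27 cells. Of 22 secreted and surface modulators, 4 passed the filter, and all 4 were lower by a size of 1 or more there, as 12.6% of all genes were. Sfrp1 and Sfrp2 had their highest means in 2i ungated cells, 41.4 and 77.4, and these levels helped them pass the filter. Notum and Znrf3 are also counted among the other targets. The count of 4 is therefore a description and not a result about the modulators. In small cells the ratios were above 0 for 3 of the 4, at 1.47 for Znrf3, 0.61 for Sfrp2 and 0.23 for Sfrp1. Ryk, another receptor, had a ratio of 1.69, from 4 high cells in each medium, and Fzd7 had a ratio of 1.11. Lrp5, a coreceptor, was high in 2 of 20 small N2B27 cells and in no other cell.

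In the destruction complex, members moved in both directions in ungated cells. Amer1, which brings APC to the membrane, was high in 7 of 22 2i and 1 of 21 N2B27 cells (log2 ratio −4.56), and Apc was high in 9 and 6 cells (−2.17), whereas Axin1 was high in 2 and 2 cells with a ratio of 2.33, so its ratio came from few cells. Among nuclear partners Bcl9 (−1.94) and Tle1 (−1.55) were lower and Tcf7l2 (1.06) was higher in ungated N2B27 cells. Dvl2 had a ratio of −0.26.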

How the data were processed

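Single mouse ES cells, 24 for each of 4 samples, were read by Smart-seq2. The authors trimmed reads with Trim Galore 0.4.4, aligned them with GSNAP to mm10 and counted them per Ensembl gene with HTSeq, and the deposited values are raw counts, neither normalized nor filtered. Genes took 72.4% of counts, ERCC spike-ins 3.85% and rows that name no gene 23.8%, the last left out. Reads are not molecules. Overlapping genes can be undercounted, and strand use is not given in the sources used here. Symbols and positions came from GENCODE M21, a later annotation release on the same build, with 45229 of 46078 identifiers matched.

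Cells beyond 3 median absolute deviations of their plate for counts, genes or mitochondrial share were left out with scater 1.30.1, which kept 75 of 96. The limits were 307960 counts, 4435 genes and 5.16% in 2i, and 1250614, 5316 and 4.67% in N2B27. Size factors came from DESeq2 1.42.0 over 1227 genes with a count in every kept cell, and phases from cyclone in scran 1.30.0. No doublet caller was run on these singly sorted cells. R 4.3.3 and Python 3.11.15 were used, with numpy 2.4.6, scipy 1.17.1, pandas 2.3.3 and matplotlib 3.10.9. The study's methods name DESeq2 tests over cells. Cells of 1 sample are not replicates, so no test was run. Log2 ratios used a pseudocount of 1, the gene filter was a mean of 10 normalized counts, and intervals are exact Poisson or Clopper-Pearson at 95%. Alternatives changed the cell filter, the size factors, the summary over cells, depth, phase and pseudocount, and left out single cells. Ratios were checked on simulated data with the same spread for all genes, by medians over many changed genes. That check does not cover the ratio of a gene whose level lies in a single cell.

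The 10 genes and the pathway lists were chosen with earlier results of these data known. Named genes were the 10 genes, the 3 largest ratios of each list in ungated cells and between gates in N2B27, the 5 genes most like Axin2 and Wnt3, and markers. Sp8, Lgr4, Myc and Msx2 were named after their values were seen, and Fzd10 and Fzd7 were also named outside this rule. Promoter windows are from RefSeq.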

Additional observations from a re-analysis of the deposited data

Results flagged for a closer look

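Between media, Axin2 moved in opposite directions in the gates. Its log2 ratio of N2B27 over 2i was −2.03 for small cells but 1.34 for ungated cells. Wnt3 also did so, at 4.88 for small cells but −1.32 for ungated cells. Neither difference between gates was tested, since each group is 1 sample. The ungated value of Axin2 rests on 3 cells of 21 in N2B27, and without the highest cell of each group it was 0.91. Both values of Wnt3 rest on 1 cell in a group, and without the highest cells they were 0.40 and −0.18.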

How the results depend on the processing

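Without the highest cell of each group, 15 of the 40 ratios of the 10 genes moved by over 1.5 times, and the causes of changes were not tested. The median of the 7 readouts in small cells, −1.57, was −0.072 without a filter on cells, −0.51 with fixed limits, −0.87 with poscounts, −2.71 with ERCC size factors, −0.98 as means of log2 values, −2.34 without the highest cells and −2.78 in S cells. In ungated cells, −0.45, it was 0.16 with poscounts and −2.63 in S cells. The other alternatives gave −0.50 to 0.00 in ungated cells, the last without the highest cells, and moved the median in small cells by less than 1.5 times as a fold. The median of all genes itself moved by over 0.1 under several settings. The setting without a filter on cells also took its size factors from poscounts, and there the median was 0.69 in small and 0.33 in ungated cells. With ERCC size factors it was −1.55 in small cells and 0.76 between gates in 2i, and as means of log2 values −0.14 in small and −0.57 in ungated cells, so the signs below under these settings are not relative to all genes. The Wnt3 ratio between gates in N2B27 (6.74) was 0.83 as means of log2 values, 0.49 without the highest cells and 0.10 in S cells, and 4.52 to 7.67 otherwise. Its difference in detection was −6.82 points in S cells and 20.2 after thinning.

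Among ratios of size 1 or more, reversed directions were found without a filter on cells for Sp5 in small cells (1.13), Axin2 in ungated cells (−0.44) and Sp5 between gates in N2B27 (2.49, and 2.22 with fixed limits), with ERCC size factors for Tcf7 in small cells (−2.72) and between gates in 2i (0.088), as means of log2 values for Tcf7 in small (−0.19) and Axin2 in ungated cells (−0.49), and in S cells for Axin2 in ungated cells (−2.63) and between gates in N2B27 (1.18), Wnt3 in ungated cells (0.31) and Nkd1 between gates in 2i (1.13). These are 12 of 255 values, and the 4 ungated N2B27 cells called S do not include the 3 with the highest Axin2. Of ratios under a size of 1, another 32 values changed sign, with Tcf7 between gates in N2B27 moving farthest, from −0.95 to 3.43.

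Without a filter on genes, the 97 pathway genes gave 24 higher and 17 lower in small cells, 17 and 29 in ungated cells, 18 and 19 between gates in N2B27 and 11 and 30 between gates in 2i. The share of all genes without that filter was not computed, and some of these genes had counts in 1 cell of a group. These counts therefore do not show whether the pathway genes differ from other genes. CPM, over the same 38 genes, gave counts within 1.5 times. No paired analysis was possible because each group is 1 sample. With 12 to 22 cells a group, a count of 0 has an exact upper limit of 26.5% of 2i small cells and 15.4% of 2i ungated cells.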

Other observations

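Of 5 naive genes that TCF7L1 represses, Esrrb, Nanog, Tfcp2l1, Klf2 and Tbx3, only Tbx3 was lower by a size of 1 or more in ungated N2B27 cells, with a log2 ratio of −1.38 and high levels in 18 of 22 2i and 13 of 21 N2B27 cells. Klf2 stood just short of it at −0.999, with medians of 227.8 and 58.3 normalized counts, while Nanog (−0.09), Esrrb (0.00) and Tfcp2l1 (0.05) lay near 0. In small cells Tbx3 had a ratio of −1.55, or −2.53 without the highest cell of each group. Tbx3 was also lower in small than in ungated cells, with ratios of −2.56 in 2i and −2.72 in N2B27. Klf2 had a ratio of −1.91 in small cells, and 63.6% of its 2i level lay in the cell with 40.9% spike-ins. Leaving out the highest cell of each group gave −0.78 for Klf2. The same cell held the highest 2i small level of Lgr4 (29918.1) and of Tcf7l2 (3021.2), from 3971 and 401 counts.

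Sp8, the close relative of Sp5, followed it below the mean filter, with 412 counts in 9 of 22 ungated and 75 in 4 of 12 small 2i cells, and 0 and 1 in ungated and small N2B27 cells.

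Across the 75 cells, on log2 values centred in each group, the genes most like Axin2 were Ncmap (r = 0.48), Kcns3 (0.48), Khk (0.47), Ogfod2 (0.46) and Myo1c (0.46), and those most like Wnt3 were Letm2 (0.87), 1700026D11Rik (0.81), Vwa2 (0.81), Pdzd7 (0.81) and Iigp1 (0.80). Cells share plates and depth, and these values are a description. Without the Wnt3 cell they were 0.62, 0.27, 0.26, 0.24 and 0.22.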
